A study of Mus musculus with 2 samples.

Results

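The genes described here are the ligands and receptors of the vascular endothelial growth factor (VEGF) and angiopoietin systems in mouse adipose tissue. They are 10 genes, 5 ligands (Vegfa, Vegfb, Vegfc, Angpt1 and Angpt2) and 5 receptors (Kdr, Flt1, Flt4, Tek and Tie1). They were picked by name, as every probe set whose only gene symbol was one of these, which gave 19 probe sets of 45101 and 10 genes of 18193. The study compared adipose tissue of the inbred strain C57BL/6 between mice on a normal diet (CE-2), the control, and mice on a high fat diet (HFD32), fed from 6 to 18 weeks of age to induce obesity. Each diet was measured on 1 Affymetrix expression array of total RNA pooled from 3 animals, so there were 2 arrays in all. The labels used here name no transgene or other treatment, and neither the fat depot nor the sex of the mice.

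VEGF ligands bind receptor tyrosine kinases of the vessel lining and drive its growth and permeability, and in fat Vegfa comes largely from adipocytes and stromal cells. The angiopoietins act on a second receptor of the same cells: Angpt1, made mainly by cells around the vessel, keeps the lining quiet and tight by activating the receptor Tie2 (gene Tek), while Angpt2, released by endothelial cells, mostly opposes it. Fat relies on this system to keep its blood supply in step with the growth of adipocytes.

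Values are log2 signals, on which a difference of 1 is a 2-fold ratio, and every difference is the high fat diet array minus the normal diet array. With 1 array a diet no test between diets was possible, and the number of arrays limits the precision. The only error available was that between probe sets of 1 gene, an SD of 0.27 on the log2 scale over 5131 genes with several probe sets above a floor of 5.44, the median of all probe sets other than controls. This SD covers the probes and not the animals. Each gene with several probe sets was read from its brightest one, and 11778 genes lay above the floor, all 10 members among them.

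Of the 10 members, 8 had a lower signal under the high fat diet, beside 49.3% of all genes above the floor. The 2 that were at least 2-fold lower were the ligands Angpt1 and Vegfa, against 3.29% of all genes, and 0 members were at least 2-fold higher, against 3.28% of all genes. All 5 receptors were lower, each by less than 2-fold. The median difference was -0.43 over the 10 members, -0.38 over the ligands and -0.48 over the receptors, beside 0 over all genes. Among the 16 probe sets of the members above the floor, 13 were lower (background 47.2%) and 3 of those were at least 2-fold lower (background 3.13%). In 4 of the 5 members with several probe sets above the floor, all of these were lower, which held for 29.6% of all such genes.

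**Figure D1:**
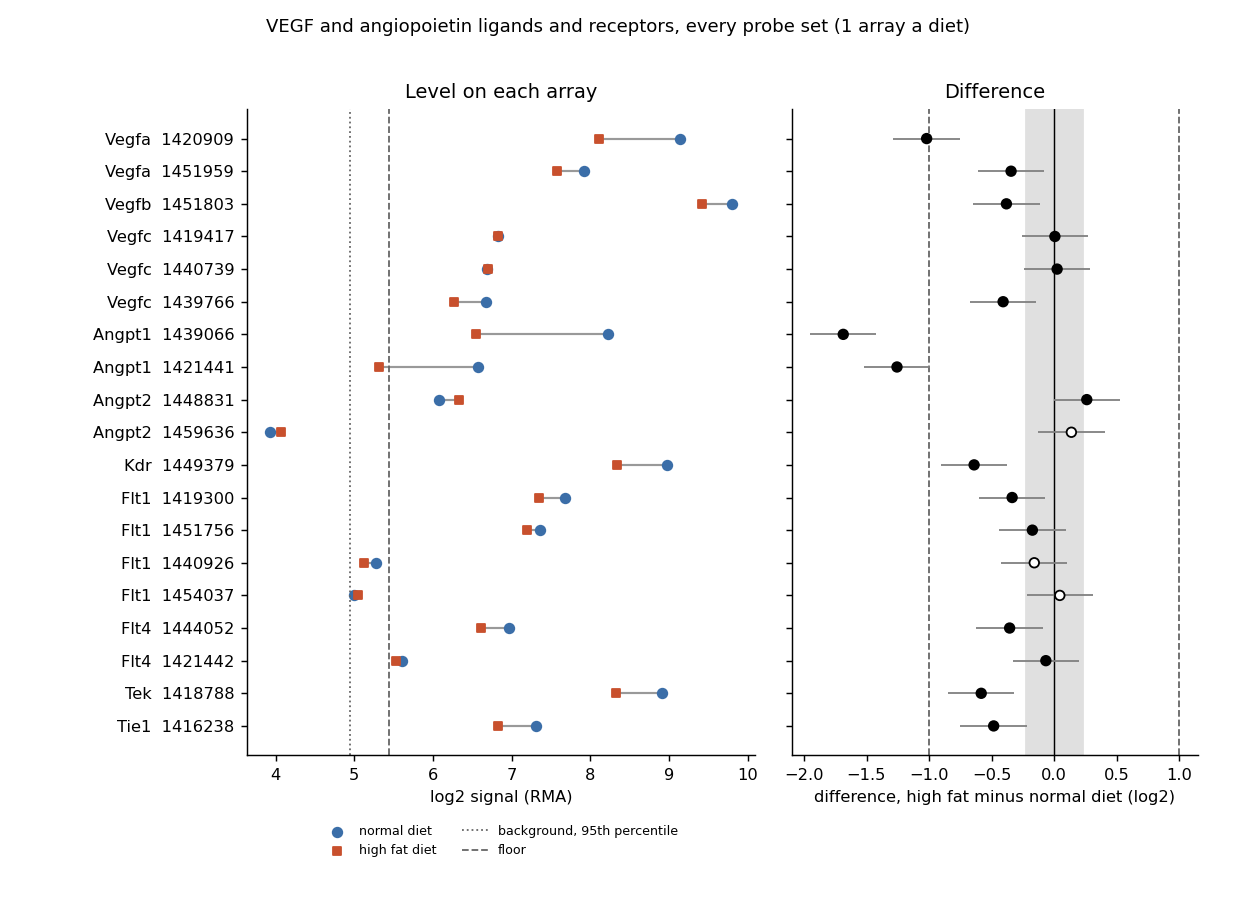
Log2 signal of every member probe set on the normal diet (circles) and high fat diet (squares) arrays, and at right the difference, with bars of 1 SD between probe sets of a gene (0.27), the middle 50% of all genes shaded, dashed lines at 2-fold and open points below the floor. Both Angpt1 probe sets lie left of the 2-fold line, the receptor probe sets above the floor sit between it and 0, and Angpt2 lies to the right of 0.

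Vegfa, the ligand that drives growth of blood vessels, was measured by a pair of probe sets. The brighter one had a level of 9.14 under the normal diet and 8.12 under the high fat diet, a difference of -1.02 or 2.03-fold lower. The other had 7.93 and 7.58, a difference of -0.35 or 1.27-fold lower. Both pointed the same way but differed from each other by 0.67, close to the 95th percentile of 0.70 for such gaps over 3105 genes with 2 probe sets above the floor. The brighter value lay just past 2-fold, and it was -0.95 with each array centred on its own median and -0.68 as the median of both probe sets, so Vegfa was not 2-fold lower under either choice.

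Vegfb, a ligand of Flt1 linked to fatty acid handling by the vessel lining, had 9.80 under the normal diet and 9.42 under the high fat diet. Its single probe set was therefore 1.30-fold lower, with a difference of -0.38. Vegfc, the ligand of lymphatic vessel growth, gave no common direction. Its 3 probe sets had differences of 0.005 (levels of 6.83 on both arrays), 0.02 (6.68 and 6.71) and -0.41 (6.68 and 6.27), and the sign of the brightest turned to -0.03 with arrays centred on housekeeping genes. The lower one can match several genes by its design.

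Kdr (VEGFR2), the main signalling receptor for Vegfa, had 8.98 and 8.34 on the normal and high fat diet arrays, on its single probe set. With a difference of -0.64 it was 1.56-fold lower, and 7.24% of all genes above the floor had a lower difference. Flt1 (VEGFR1), which binds Vegfa and Vegfb tightly and also exists as a soluble trap, differed less. Its brightest probe set had 7.68 and 7.34, a difference of -0.34, and its next had 7.37 and 7.19, a difference of -0.18, within the SD between probe sets. The remaining Flt1 probe sets lay below the floor, with differences of -0.16 and 0.04. Flt4 (VEGFR3), the receptor for Vegfc found mainly on lymphatic vessels, had 6.97 and 6.61 on its brighter probe set, a difference of -0.36, and 5.60 and 5.54 on the other, a difference of -0.07. Flt1 and Flt4 thus had the same sign on all probe sets above the floor, but only 1 probe set of each exceeded the SD.

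Angpt1, the Tie2 agonist, stood lowest of all members on both of its probe sets. The brighter one had 8.23 under the normal diet and 6.54 under the high fat diet, which is 31.1% of the normal diet signal. The other had 6.58 and 5.32, or 41.9%. The differences were -1.69 and -1.26, 3.22-fold and 2.39-fold lower. Angpt1 was the 1 member of 5 whose probe sets above the floor were all at least 2-fold lower, as in 1.11% of such genes, and 162 of the 11778 genes above the floor (1.38%) had a lower difference.

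Angpt2, the context-dependent antagonist, pointed the other way by little. It had 6.08 and 6.34 on its brighter probe set, a difference of 0.26 that is within the SD between probe sets. Its other probe set, with 3.93 and 4.07, lay under the background level on both arrays and gives no direction. That level was the 95th percentile of 83 probe sets of sensory receptor genes, 4.92 on the normal and 4.95 on the high fat diet array. Relative to Angpt1, the Angpt2 signal was 3.85-fold higher on the high fat diet array than on the normal diet array, and 2.86-fold higher against the dimmer Angpt1 probe set. This unequal change came mostly from Angpt1, and it does not show that Angpt2 itself was the same on both diets.

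Tek (Tie2), the angiopoietin receptor, had 8.91 under the normal diet and 8.32 under the high fat diet, a difference of -0.58 or 1.50-fold lower. Tie1, a related receptor with which Tie2 forms complexes, had 7.31 and 6.83, a difference of -0.48 or 1.40-fold lower. Each has 1 probe set, so neither value has a second reading. The difference of Angpt1 was lower than that of its receptor Tek by 1.10 on the log2 scale, and by 0.67 on its dimmer probe set.

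**Figure D2:**
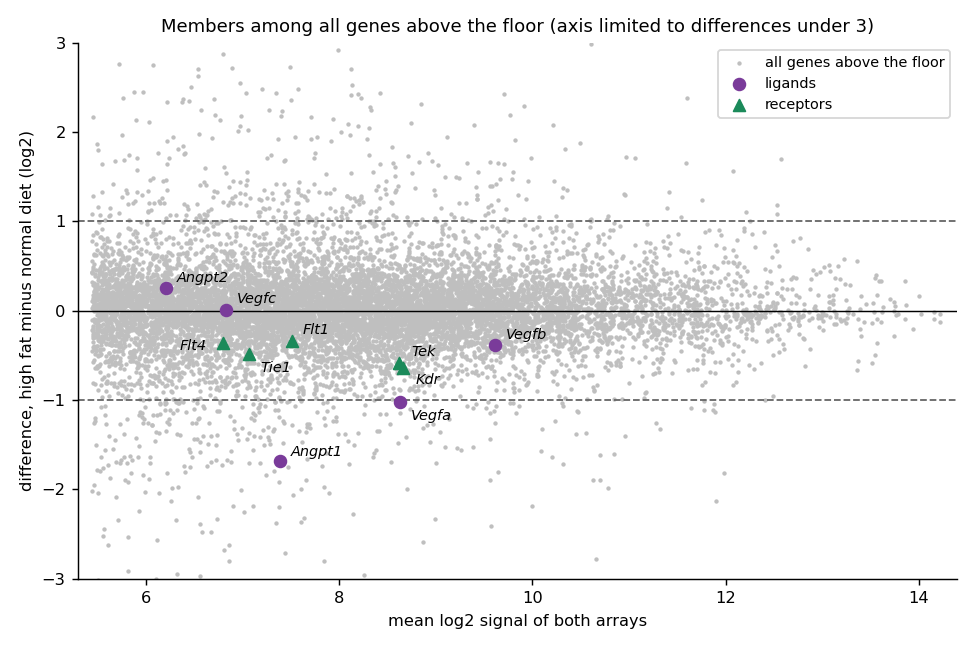
Difference against mean log2 signal for all 11778 genes above the floor (grey; 92 lie outside the axis), with ligands as circles and receptors as triangles and dashed lines at 2-fold. Angpt1 at -1.69 and Vegfa at -1.02 lie at or under the lower line, the receptors form a group from -0.64 to -0.34, and Vegfc and Angpt2 lie at or above 0.

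Since Kdr, Tek and Tie1 were the receptors with the lowest differences and Vegfa the lowest VEGF ligand, the 250 bases before their annotated starts are shown, from RefSeq on GRCm38.p6. For Vegfa the first of its annotated starts was taken. Each is written 5′ to 3′ on the gene's own strand, and capitals mark matches on either strand to GGAAG (the core bound by ETS factors, with many roles in endothelium), GATAA (GATA factors), GGGCGG (GC box), ACGTG and GCGTG (cores of hypoxia response elements) and GTAAACA (forkhead factors). The windows are chr17:46032378-46032627 for Vegfa on the minus strand, chr5:75978456-75978705 for Kdr on the minus strand, chr4:94739039-94739288 for Tek on the plus strand and chr4:118489850-118490099 for Tie1 on the minus strand.
Vegfa: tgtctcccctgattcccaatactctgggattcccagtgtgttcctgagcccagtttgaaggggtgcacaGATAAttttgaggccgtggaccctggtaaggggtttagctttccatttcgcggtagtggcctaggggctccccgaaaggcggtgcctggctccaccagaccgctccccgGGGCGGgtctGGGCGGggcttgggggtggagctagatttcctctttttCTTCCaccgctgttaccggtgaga
Kdr: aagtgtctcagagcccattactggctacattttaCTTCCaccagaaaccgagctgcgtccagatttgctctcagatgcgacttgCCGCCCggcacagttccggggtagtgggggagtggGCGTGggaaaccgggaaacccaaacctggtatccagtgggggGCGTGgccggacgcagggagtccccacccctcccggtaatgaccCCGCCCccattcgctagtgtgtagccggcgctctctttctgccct
Tek: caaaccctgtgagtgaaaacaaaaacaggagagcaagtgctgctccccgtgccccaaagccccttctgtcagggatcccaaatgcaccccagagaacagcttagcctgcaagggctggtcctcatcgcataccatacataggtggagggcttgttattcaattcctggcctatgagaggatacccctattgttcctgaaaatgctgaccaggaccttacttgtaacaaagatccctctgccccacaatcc
Tie1: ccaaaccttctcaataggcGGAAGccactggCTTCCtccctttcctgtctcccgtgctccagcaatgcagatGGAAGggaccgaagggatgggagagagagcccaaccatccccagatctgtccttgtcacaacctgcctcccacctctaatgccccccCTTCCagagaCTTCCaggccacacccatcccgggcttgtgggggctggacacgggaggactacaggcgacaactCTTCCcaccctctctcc

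No motif was found in all 4 windows. GGAAG was found 6 times in the Tie1 window, 1 time each in those of Kdr and Vegfa and 0 times in that of Tek, and 64.1% of 32851 RefSeq windows of this length hold it. Kdr had 2 matches to GCGTG (held by 28.2% of windows) and 2 to GGGCGG (32.7%). Vegfa had 2 matches to GGGCGG and 1 to GATAA (22.6%). Tek had 0 matches to any of the 6 motifs, and ACGTG (16.6%) and GTAAACA (3.17%) were in none of the 4 windows. The window of the other annotated Vegfa start, chr17:46025164-46025413, which is not shown, held 1 match to ACGTG, 1 to the core GCGTG, 1 to the GC box and 1 to the ETS core. GGGCGG and GCGTG can share letters, as can GCGTG and ACGTG on the same strand. A match is a description of letters. Of the 10 members 8 had a window, and Angpt1 and Angpt2 had none, so the lowest member could not be shown.

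The other ligands and partners of these receptors were split. Of 11 such genes 9 lay above the floor, 6 lower and 3 higher, and their median was -0.07 (0.003 with each array centred on its median and 0.01 with the floor at the 75th percentile). Angpt4, another angiopoietin, had 6.88 under the normal diet and 5.53 under the high fat diet, a difference of -1.35. Its other probe set, below the floor, had 5.41 and 4.28. The latter lay under background, so the size of that difference, -1.13, is uncertain. Ccbe1, a secreted protein needed for processing of Vegfc, had 7.92 and 6.80, a difference of -1.12. Its next probe set, below the floor, had 5.84 and 4.72, a difference of -1.13 with the lower level under background. The 2 dimmer ones, under background on both arrays, had 0.24 and 0.27. Ptprb (VE-PTP), the phosphatase that damps Tie2 and Kdr signalling, had 9.82 and 9.12, a difference of -0.70, and -0.50 on its other probe set above the floor. On their brightest probe sets Angpt4 and Ccbe1 were thus past 2-fold like Angpt1, but they had no second probe set above the floor. Ptprb lay near its partner receptor Tek.

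The VEGF co-receptor Nrp1 was lower on all 4 of its probe sets, from -0.45 to -0.15, with 10.72 and 10.43 on the brightest. The co-receptor Nrp2, which binds Vegfc, was higher on all 4, of which 3 lay above the floor. Its differences ran from 0.03 to 0.58, with 7.65 and 7.68 on the brightest. The semaphorin receptor Plxnd1 had 9.04 and 9.33, a difference of 0.29. Pgf, a ligand of Flt1, differed by -0.07 with levels of 5.96 and 5.89, and Vegfd, a second ligand of Flt4, by 0.09 with 8.99 and 9.08. Sema3f, a ligand of Nrp2, differed by -0.01 with levels of 8.79 and 8.78. Sema3a, with 5.10 and 4.83, lay below the floor, and Adamts3, the Vegfc-processing protease, lay under background on both arrays with 3.40 and 3.21. The differences of Pgf, Vegfd and Sema3f were within the SD between probe sets. So were those of some Nrp1 and Nrp2 probe sets, among them the brightest of Nrp2.

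**Figure D3:**
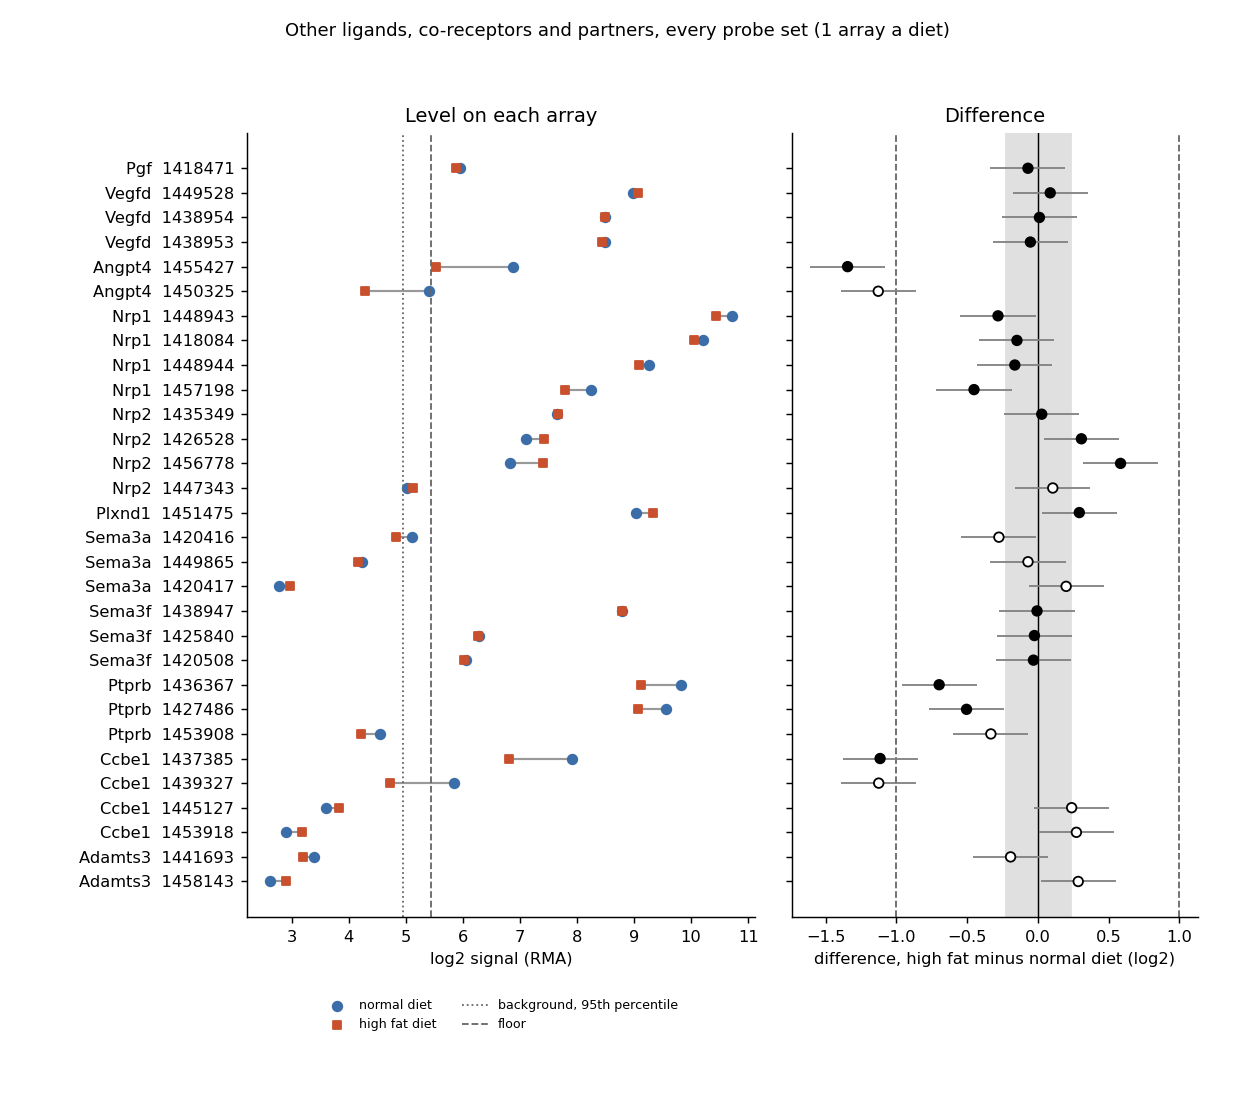
Every probe set of the other ligands, co-receptors and partners, drawn with the symbols used for the members: levels at left, differences at right. Angpt4, Ptprb and the brighter Ccbe1 probe sets lie left of 0, Nrp1 lies left and Nrp2 right of 0 on all 4 probe sets each, and Vegfd, Pgf and Sema3f lie at 0 within the bars.

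Genes that carry the signal of these receptors inside the cell went both ways. Of 31 genes above the floor 19 were lower and 12 higher, with a median of -0.09 (0.02 with genes read from the median of their probe sets). Pik3r1, the regulatory subunit of PI3 kinase, had -0.95, the kinase Yes1 -0.53 and the protein kinase C gene Prkca -0.42 (-0.22 on its other probe set above the floor). Foxo1, the transcription factor that Tie2 signalling holds back, had 9.79 and 9.43, a difference of -0.36, and was lower on all 3 probe sets above the floor. Dok2, an adaptor of Tie2 that blood cells also express, was the 1 gene past 2-fold, at 1.03.

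Genes that respond to VEGF in endothelial cells, members left out, gave 9 lower and 4 higher of 14, 0 of them 2-fold, with a median of -0.07 (0.006 with each array centred on its median). Nr4a1 had -0.64, Klf2 -0.39 and Dusp5 -0.36, and the chemokine receptor Cxcr4, which leukocytes also carry, had 0.78. Esm1, a gene of sprouting tip cells that was named outside the rule, lay under background on both arrays.

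Hypoxia genes, among which Vegfa is a classical target, went both ways. Of 26 genes 14 were higher and 12 lower, and past 2-fold 1 was higher and 2 were lower. Their median was 0.08. Hif1a, the oxygen-regulated transcription factor, had 10.88 and 11.47, a difference of 0.59, and was higher on all 3 probe sets above the floor, from 0.57 to 0.96. Its relative Epas1 had 11.91 and 11.74, a difference of -0.17, and 0.24 on its other probe set. The glycolytic regulator Pfkfb4 (1.11), the collagen crosslinker Lox (0.96) and the carbonic anhydrase Car9 (0.79) were highest, while the glucose transporter Slc2a3 was lowest, with -1.89 and -1.87 on both probe sets above the floor. Ndrg1, a stress-induced gene, had -1.14 and was lower on all 5 of its probe sets, and the kinase Pdk1 had -0.97, both named after their values were seen. Slc2a1, the glucose transporter most used as a hypoxia target, had 7.94 and 7.67, a difference of -0.28. On its brighter probe set Vegfa, at -1.02, stood below Hif1a and below 24 of the 26 hypoxia genes. Its other probe set had -0.35. The part of hypoxia in the Vegfa difference was not tested.

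Among 28 genes of other angiogenic factors and their receptors 16 were lower and 12 higher, with a median of -0.04 (0.03 with each array centred on its median). The hepatocyte growth factor receptor Met had -0.94, the apelin receptor Aplnr -0.85 (0.03 on its other probe set) and the Notch ligand Dll1 -0.75. The adipocyte hormone Lep, which also acts on vessels, was the 1 gene past 2-fold, at 1.08 with levels of 11.99 and 13.07. Of 14 angiogenesis inhibitors 7 were higher and 7 lower. Serpinf1 (pigment epithelium-derived factor) was 2.36-fold higher, with 11.14 and 12.37, and the thrombospondin Thbs2 was 2.06-fold higher, with 7.56 and 8.60, while Spry4, an inhibitor inside the cell, had 0.98. Plg, the liver-made precursor of plasmin and angiostatin, had -3.52, beside a median of -5.40 over 13 hepatocyte markers. Hrg, named after its value was seen, had -1.84. Its levels were 6.89 under the normal diet and 5.04 under the high fat diet, the latter near the background level of 4.95. Past 2-fold, 2 of the inhibitors were thus higher and 2 lower.

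Markers of blood endothelium were lower as the receptors were. Of 32 such genes, members left out, 28 were lower, with a median of -0.39, and their summed signal was 14.14 under the normal diet and 13.72 under the high fat diet on the log2 scale. Pecam1, the junction protein CD31, had 8.82 and 8.15, a difference of -0.67. Cdh5, the endothelial cadherin, had 7.80 and 7.41, a difference of -0.39, but 0.53 on its dimmer probe set. Emcn had -0.76, the water channel Aqp1 -0.81 and the transcription factor Sox7 -1.31 (0.41 on its other probe set, which lay below the floor), against 0.34 for Ramp2. Bmx was the only marker of this list under background on both arrays.

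Set beside that median of -0.39, the receptors lay close to it. Kdr was lower than the endothelial median by 0.25 on the log2 scale, Tek by 0.19 and Tie1 by 0.09, while Flt4 was higher by 0.03 and Flt1 by 0.05, all within the SD of 0.27. Kdr had 6 of the 32 endothelial genes below it, Tek 7, Tie1 11, Flt4 18 and Flt1 18. The ligands spread wider on their brightest probe sets. Angpt1 lay below all 32 and Vegfa below 31 of them. Vegfb (17 below it) was in their middle, and Vegfc and Angpt2 had 28 and 31 genes below them. The other Vegfa probe set, at -0.35, lay near the endothelial median. In a bulk tissue fewer cells of a type and less RNA per cell cannot be told apart. The part of the endothelial markers in the receptor differences was not tested.

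Markers of mural cells, the pericytes and smooth muscle cells around vessels that make much of the Angpt1, were lower too. Of 17 genes 13 were lower and 6 at least 2-fold lower. Their median was -0.80, and their summed signal was 14.23 and 13.29. Cnn1 had -3.54, Myh11 -3.25 and Vtn, which liver also makes, -2.27, against 0.45 for Foxs1. The list was uneven, as genes named after their values were seen show. Rgs5 had -1.09, Kcnj8 -1.02 and Abcc9 -0.90, while Cspg4 had 0.38. Pdgfrb (-0.25), Mcam (-0.01), Higd1b (0.03) and Ndufa4l2 (0.08) lay within the SD between probe sets. Angpt1 at -1.69 lay below 13 of the 17 and had 4 below it. The smooth muscle genes Cnn1 and Myh11 are shared with other organs, and none of the 17 lay under background on both arrays. The part of these markers in the Angpt1 difference was not tested.

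Lymphatic markers, members left out, gave 9 lower genes of 13. Their median was -0.22. Their summed signal was 12.77 and 12.34, with Cp, at 10.85 and 9.78, among its brightest genes. Reln had -1.31, Mmrn1 -1.16 and Cp -1.07, which liver also expresses, against Stab2, which was at least 2.09-fold higher. Prox1, the defining transcription factor of lymphatic endothelium, lay under background on all 3 of its probe sets, with 2.88 and 3.21 on the brightest. Flt4 and Vegfc were therefore measured on arrays that did not show Prox1 above background. Prox1 was the only gene of this list under background on both arrays. On their brightest probe sets Mmrn1 had 7.71 and 6.55 and Reln 7.65 and 6.34.

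**Figure D4:**
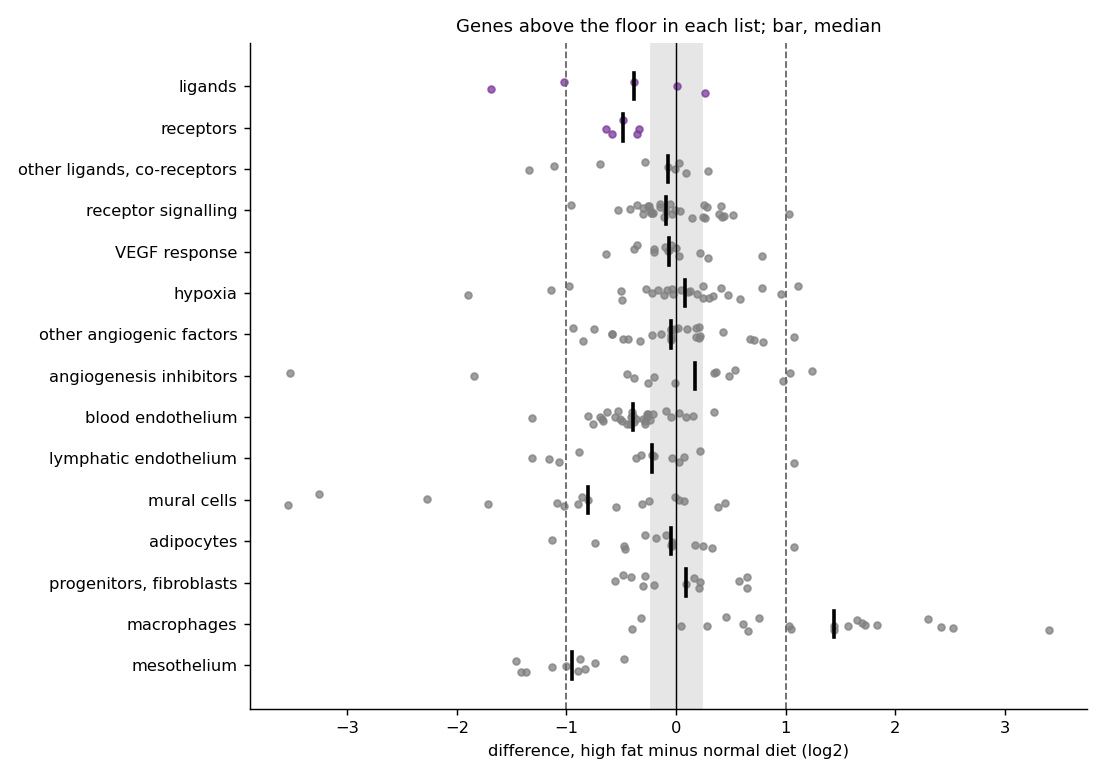
Difference of each gene above the floor (points) in 15 lists, with the list's median as a bar, members left out of every list but their own, the middle 50% of all genes shaded and dashed lines at 2-fold. Medians lie below 0 for the receptors (-0.48), blood endothelium (-0.39), mural cells (-0.80) and mesothelium (-0.95), near 0 for adipocytes (-0.05) and at 1.44 for macrophages.

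Markers of other cell types differed between the arrays. Adipocyte markers were bright, with Adipoq at 14.21 and 14.12. They had a median of -0.05 over 15 genes (0.03 with each array centred on its median). Of the 15, 11 were lower and 4 higher, beside 49.3% lower of all genes above the floor. Past 2-fold, 1 was lower and 1 higher. None of these markers lay under background on both arrays. Of 21 macrophage markers 19 were higher and 13 at least 2-fold higher. Their median was 1.44, and their summed signal was 14.41 and 15.63. Markers of progenitors and fibroblasts had a median of 0.09 over 13 genes (-0.06 with the floor at the 75th percentile) and mesothelium markers -0.95 over 10. Hepatocyte markers had a median of -5.40, pancreas markers -3.00 and skeletal muscle markers -1.74, and epididymis markers 4.41. The part of these shares in the member differences was not tested.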

How the data were processed

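The values were log2 signals per probe set, 1 column an array, made by the authors with RMA, which corrects background, equalises the arrays and sums up the probes of a set, per the submitters' processing notes. Its version is not stated there. That the scale is log2 was taken from the deposited values, 2.04 to 14.28 and 2.06 to 14.21. The sorted columns differed by at most 0.14, so a change in total RNA is not visible, and RMA compresses differences at both ends of the scale. No scanner files were analysed here.

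Gene names came from the platform annotation in GEO, with Entrez IDs looked up in RefSeq for GRCm38.p6: 34958 had 1 symbol, of which 34754 were found and 0 renamed, 932 had several and 9160 other than controls had none. The 64 control probe sets were left out. The floor, the background level and the gene lists are those given with the results. Where a list is given with members left out, its genes shared with the 10 members were removed. Named genes were all members, all of their other ligands and partners, and from every other list up to 3 genes farthest in the direction of its median and 1 farthest the other way, with 8 genes always reported. Lists of cell types outside the vessel wall are given by their medians, without the genes so picked. With 2 arrays a pattern is 1 difference, so no gene was sought for its likeness to a member. Members and lists were chosen with earlier results of these data known. Calculations used Python 3.11.15 with pandas 2.3.3. The procedure was tested on simulated data, with shifts larger than any member difference and with random noise alone. That test does not cover differences as small as those of the receptors, nor variation between animals. The alternatives were another floor or none, the median of a gene's probe sets, leaving out probe sets that can match several genes, 3 other scalings, and raising dim signals to background.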

Additional observations from a re-analysis of the deposited data

How the results depend on the processing

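All 5 receptors stayed lower under 7 of the 8 alternatives, the other keeping only Kdr and Tek above the floor, and Angpt1 ran from -1.72 to -1.47. With the floor at the 75th percentile only 4 members were left (Vegfa, Vegfb, Kdr and Tek), all 4 lower and 1 at least 2-fold, and the ligand median was -0.70. The number of members at least 2-fold lower was also 1 with genes read from the median of their probe sets, where Vegfa had -0.68, and 1 with each array centred on its median. Over all settings the median of the members ran from -0.61 to -0.36. Cdh5 had 0.07 with the median of its probe sets. Among the lists, the median of the angiogenesis inhibitors was 0.17 and became -0.15 with no floor, and that of macrophages was 1.04 with the higher floor and 1.03 with the median of probe sets. The higher floor left 1 pancreas gene (Cela1), at 0.95. With dim signals raised to background the medians of hepatocyte, pancreas and epididymis markers were -5.01, -2.66 and 3.81, and that of epididymis markers was 4.12 with no floor and 4.03 with the higher one. No paired analysis was possible because each diet has 1 array. The signal over background limits the dimmer probe sets of Flt1, Flt4 and Angpt2, the last under background, and that of Angpt1, at 5.32 on the high fat diet array.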

Other observations

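Single genes of neighbouring vessel pathways, named after their values were seen are given here with no test. The arterial and venous pair Efnb2 and Ephb4 had -0.58 and -0.14, and the receptor Notch1 had -0.58 while its endothelial relative Notch4 had -0.05 and the tip-cell ligand Dll4 -0.04. The chemokine Cxcl12 had 0.71 on its brightest probe set but -0.17 on its other one above the floor, and its receptor Cxcr4 had 0.78. Nos3, the endothelial nitric oxide synthase downstream of VEGF, had 0.42, unlike the 28 of 32 endothelial markers that were lower.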
